A study of Mus musculus with 2 samples.

Results

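The interferon-induced GTPases described here are 10 mouse genes: the immunity-related GTPases (IRG family) Irgm1, Irgm2, Igtp, Iigp1 and Ifi47, the guanylate-binding proteins (GBP family) Gbp2, Gbp3 and Gbp6, and the dynamin-like Mx1 and Mx2. They were chosen by gene name, as every non-control probe whose name in the scanner files was one of these symbols. That gave 13 of the 39429 probes and 10 of the 22804 named genes. Irgm1, Iigp1 and Gbp6 had a pair of probes each, and the other members had 1 probe each.

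The study set Lamtor1 knockdown RAW264.7 cells against control RAW264.7 cells, with 1 single-colour expression array per group. RAW264.7 is a macrophage-like mouse cell line, and Lamtor1 is a membrane-anchoring subunit of Ragulator, the lysosomal complex that recruits the growth-regulating kinase complex mTORC1. Its stated aim concerned the activity of the lysosomal transcription factor TFEB in cells without Ragulator. No interferon treatment is named for either group. The labels describe a lentiviral mix of 2 short hairpin RNA vectors against Lamtor1 followed by limiting dilution, in identical wording for both samples. The sources used here name neither the vector of the control cells nor the number of clones behind a sample.

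IRG and GBP proteins are made by cells exposed to interferon and are best known in mouse macrophages. They gather on the vacuoles that enclose parasites and bacteria and help to break them open. Irgm1, Irgm2 and Igtp (the protein Irgm3) are regulatory IRG proteins that sit on the cell's own membranes and hold effector IRG proteins such as Iigp1 in the inactive state. Mx proteins bind viral nucleoproteins, and many laboratory mouse strains carry defective Mx1 and Mx2 alleles. Type I interferon acts on genes through the interferon-stimulated response element, which a complex with Irf9 binds, and interferon gamma acts through the gamma-activated site.

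Values are given on 1 scale. A level is the log2 of the processed intensity of a probe minus the log2 of the 75th percentile of its array, which was 1255 intensity units in the knockdown and 1172 in the control. A difference is the knockdown level minus the control level, so that a difference of -1 is a 2-fold lower signal in the knockdown. A gene was called measured when its brightest probe was well above background, as the scanner software marked it, on at least 1 array, which held for 13769 genes. A difference of at least 2-fold was used as the fixed size for counting. With 1 array per group there is no replicate check, no test was possible, and none of the differences below has an error between samples. Levels of different probes are not comparable with each other. In whole-culture RNA, fewer cells making a transcript and less transcript per cell cannot be told apart.

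Both arrays had 43020 non-control spots, of which 52.9% in the knockdown and 53.3% in the control were well above background, and none was saturated. Lamtor1 itself had a level of -0.43 in the knockdown and 4.10 in the control, which left 4.34% of the control signal. All 10 macrophage markers were well above background on both arrays. Their levels, summed on the linear scale and given as log2, came to 7.80 in the knockdown and 8.30 in the control. The brightest probes weigh most in such a sum. Among them Adgre1 was lower at -1.56, while Fcgr3, Cd68 and Mrc1 were at least 2-fold higher. Of the markers of other cell types, 3 of 6 for T cells, 1 of 6 for fibroblasts and 4 of 5 for plasmacytoid dendritic cells were above background on both arrays, and 0 of 4 for epithelium on either. For B cells 0 of 5 were above background in the knockdown and 1 of 5 in the control. The log2 of the summed levels was 1.30 in the knockdown and 1.39 in the control for the T cell list. For the plasmacytoid list it was 5.66 in the knockdown and 6.04 in the control. It was -4.49 in the knockdown and -4.26 in the control for fibroblasts, -4.84 in the knockdown and -3.98 in the control for B cells, and -5.83 in the knockdown and -5.65 in the control for epithelium. Of the T cell list, Cd3e, Cd4 and Lck were above background on both arrays and Cd3d, Cd3g and Cd8a on neither. Of the plasmacytoid list, Bst2, which is also counted among the antiviral effectors below, had a difference of -1.26. Siglech, Tcf4 and Spib had -0.15, -0.15 and 0.05. The part of these markers in the results below was not tested.

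The array reads each gene through a 60-base probe. The first 30 bases of the probes on which the largest differences rest, and of both Irgm1 probes, are shown so that the reads behind them can be identified.
Igtp A_51_P112355: atattcaactgtaatagcccgttccttcaa
Irgm2 A_55_P2137611: gtgtcttaggtcatagacatagattttctc
Irgm1 A_51_P262171: gcattgttccactgagggacagggacaagt
Irgm1 A_55_P1981479: agagaatagccaacgagtccttgaagaatt
Mx2 A_51_P514085: aagagaaagaggctctcaaagctcagcaag
Per the file headers their positions in the mm9 build are chr11:58020927-58020986 for Igtp, chr11:58036093-58036152 for Irgm2, chr11:48679069-48679128 and chr11:48679632-48679691 for Irgm1, and chr16:97782327-97782386 for Mx2. The exon or untranslated region each lies in was not looked up, since no annotation of that build was used here. The longest run of bases that a measured member probe shared with a probe of another gene name was 13 to 17 of 60 bases. Probes were compared with other probes only and not with transcripts, so binding to related transcripts was not tested.

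The promoters of the members are shown because interferon acts on them through short elements close to the gene start. The sequences are from RefSeq (build GRCm38.p6), in the direction of the gene. Capitals mark matches to the letters searched. For the response element these were TTTC repeated after any 2 bases, which reads as GAAA repeated on the opposite strand. For the gamma-activated site they were TTC and GAA with any 3 bases between them, the same on both strands.
Igtp chr11:58199406-58199555 (+): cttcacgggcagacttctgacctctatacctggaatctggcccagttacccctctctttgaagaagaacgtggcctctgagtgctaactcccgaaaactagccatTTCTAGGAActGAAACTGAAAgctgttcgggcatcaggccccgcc
Irgm2 chr11:58214827-58214976 (+): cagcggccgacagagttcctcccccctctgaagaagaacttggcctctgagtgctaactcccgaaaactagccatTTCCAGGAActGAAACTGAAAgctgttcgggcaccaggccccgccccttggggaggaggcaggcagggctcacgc
Irgm1 chr11:48871421-48871490 (-): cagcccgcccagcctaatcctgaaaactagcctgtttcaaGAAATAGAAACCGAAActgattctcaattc
Gbp2 chr3:142620564-142620638 (+): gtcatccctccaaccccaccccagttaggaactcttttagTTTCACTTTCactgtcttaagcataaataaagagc
Gbp3 chr3:142559959-142560039 (+): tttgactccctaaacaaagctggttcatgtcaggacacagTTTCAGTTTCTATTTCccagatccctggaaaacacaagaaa
Gbp6 (Gbp7 in RefSeq) chr3:142530243-142530317 (+): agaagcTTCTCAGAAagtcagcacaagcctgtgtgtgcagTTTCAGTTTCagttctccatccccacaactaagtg
Both strands of each window, from 250 bases before to 50 bases after the gene start, were searched. Windows were matched for 7 members, counting Gbp6 through Gbp7 as explained below. None was used for Iigp1, Mx1 or Mx2. A response element match was present in a window of 6 of the 7, the exception being Ifi47. Of all 27025 genes with a window 3.99% held one, and of all 32851 windows 3.44%. In Gbp3 and in Irgm1 a pair of overlapping matches was found, and the second window of Gbp3 held none. The gamma-activated site was matched in Igtp, in Irgm2 and at 2 places in the Gbp6 window, 1 of them upstream of the stretch shown. Such a match was held by 9.55% of all genes with a window and 8.3% of all windows. Both motifs together were present in 0.454% of all windows.

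The Igtp and Irgm2 windows were close copies of each other, with 244 identical bases in 270 aligned columns, or 90.4%. In Igtp the site TTCTAGGAA and in Irgm2 the site TTCCAGGAA stood just upstream of the same response element match, GAAACTGAAA. The Irgm1 window aligned with that of Irgm2 over 90 columns only, at 67.8% identity, and had no match to the gamma-activated site. A match is a description of these letters and not of a bound site.

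**Figure D1:**
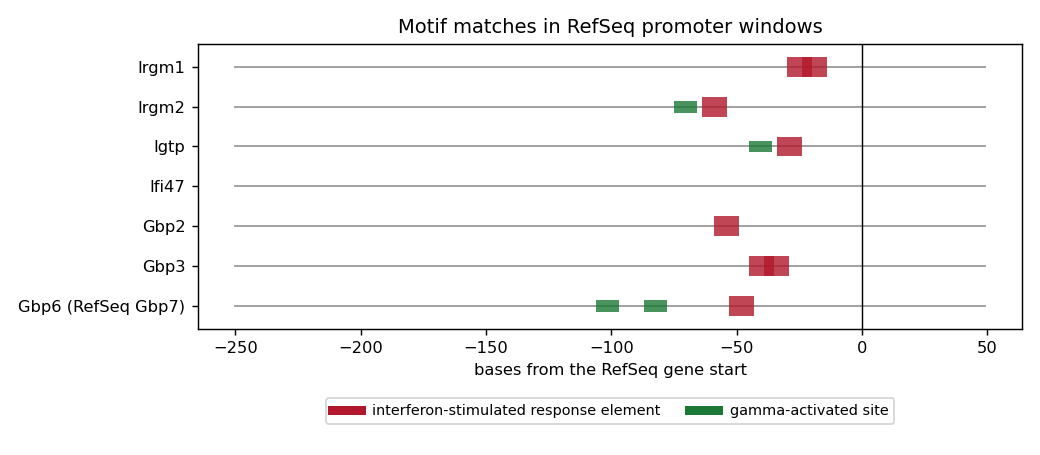
Positions of motif matches in the RefSeq promoter windows of 7 members, in bases from the gene start at 0 (first window of Gbp3). Red blocks are matches to the interferon-stimulated response element and green blocks matches to the gamma-activated site. All response element matches lie within 100 bases before the start, Igtp and Irgm2 carry the same pair of motifs side by side, and Ifi47 carries neither.

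Across the set, 3 of the 8 measured members were at least 2-fold lower in the knockdown, namely Mx2, Irgm2 and Igtp, and 0 were at least 2-fold higher. The 3 lower members are 37.5% of those measured, beside 8.35% of all 13769 measured genes that were at least 2-fold lower and 8.99% that were at least 2-fold higher. The other 5 measured members lay within 2-fold. Their median difference was -0.57 over the 8 measured members, with a range of -6.00 to 0.39, while the median over all measured genes was -0.05 and the 25th and 75th percentiles of those genes were -0.37 and 0.31. Differences were below 0 in 7 members and above 0 in Irgm1, while the median of all measured genes was itself just below 0. Of the 7, Gbp6 at -0.22 and Iigp1 at -0.16 did not exceed spot noise. The median SD of a single-spot difference was 0.34 and 0.16 among repeatedly spotted probes of like signal. Gbp2 and Mx1 were not well above background on either array, so no difference is given for them. Leaving out genes dim on 1 array, 2 of 6 members were at least 2-fold lower, beside 5.52% of 12562 genes. Mx2 and Gbp6 were above background in the control only, as were 4.51% of measured genes.

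**Figure D2:**
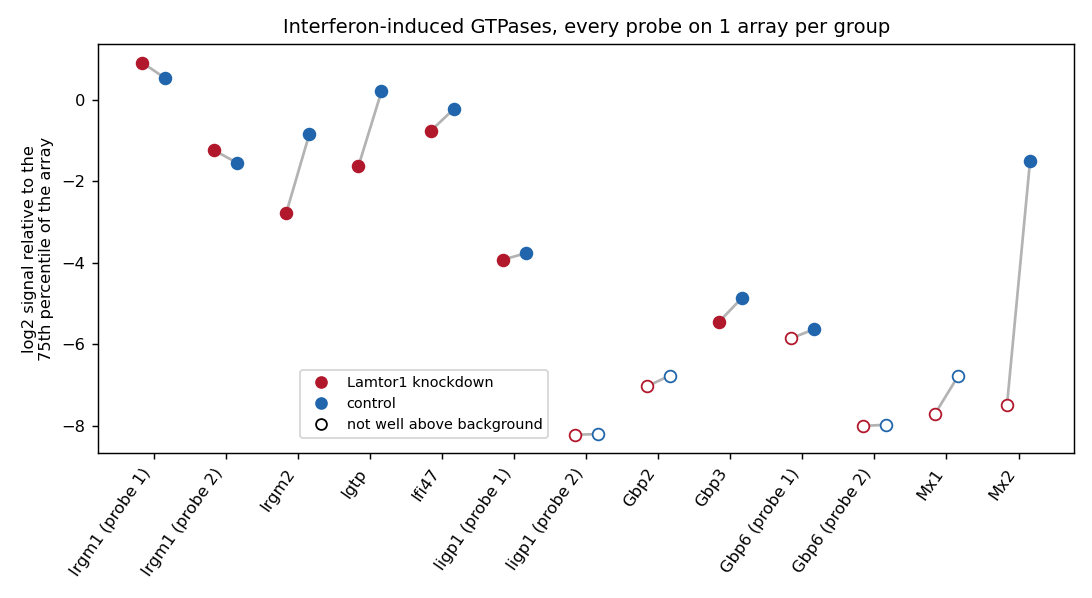
Level of each of the 13 member probes (log2 signal relative to the 75th percentile of the array) in Lamtor1 knockdown cells (red) and control cells (blue), 1 array each. Open circles are values not well above background. The Mx2, Igtp and Irgm2 points are far lower in the knockdown than in the control, both Irgm1 probes are slightly higher, and the probes of Gbp2 and Mx1 are open on both arrays.

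Among the regulatory IRG genes, Igtp and Irgm2 were lower and Irgm1 was slightly higher. Igtp was printed at 10 spots on each array, with intensities of 385 to 430 in the knockdown and 1236 to 1436 in the control. The spots of the arrays did not overlap. The mean intensity was 406 in the knockdown and 1354 in the control, giving a level of -1.63 in the knockdown, 0.21 in the control and a difference of -1.84, a 3.57-fold lower signal. The spot-to-spot SD was 0.045 in the knockdown and 0.076 in the control on the log2 scale (10 spots each), which measures the array and not the cells.

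Irgm2, which lies next to Igtp on chromosome 11, had an intensity of 185 in the knockdown and 659 in the control. Its level was -2.77 in the knockdown and -0.83 in the control, and its difference was -1.94, a 3.82-fold lower signal. The knockdown thus held 26.1% of the control signal for Irgm2 and 28.0% for Igtp. Of all measured genes, 3.71% had a lower difference than Irgm2 and 3.97% a lower one than Igtp.

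Irgm1, whose loss in mice impairs resistance to intracellular bacteria, was the only measured member above 0. Its brighter probe had an intensity of 2367 in the knockdown and 1691 in the control, a difference of 0.39 or a 1.31-fold higher signal. The dimmer probe had 531 in the knockdown and 400 in the control, a difference of 0.31 or 1.24-fold. Both probes were well above background on both arrays and moved the same way by less than 2-fold. For scale, 192 probes that were spotted several times and were well above background at a mean level of at least -3 had a median SD of 0.074 for the log2 difference of a single spot. That figure holds spot noise only, with no part for differences between cultures.

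Ifi47 (the protein Irgd) had an intensity of 738 in the knockdown and 998 in the control. Its difference of -0.54, a 1.45-fold lower signal, lay within 2-fold, and 17.7% of measured genes had a lower one. Iigp1 (Irga6), the effector that polymerises on parasite vacuoles, had 82.6 in the knockdown and 86.0 in the control at the probe at chr18:60551352-60551411 (mm9), a difference of -0.16. The other Iigp1 probe read 4.20 in the knockdown and 3.97 in the control and was not well above background on either array.

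The GBP genes were dim. Gbp3 had an intensity of 28.6 in the knockdown and 40.2 in the control, with a difference of -0.59 or a 1.51-fold lower signal, and was above background on both arrays. With normexp background correction, which models signal and background together and here adds an offset of 50 intensity units, its difference was -0.29. The offset draws the differences of dim probes toward 0, so a smaller fold with normexp is partly built in. Gbp2, a GBP that targets vacuoles and bacterial membranes, had a level of -7.04 in the knockdown and -6.77 in the control and was not well above background on either. At this intensity a difference in Gbp2 was not detectable.

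The probe that the files call Gbp6, at chr3:142209379-142209438 (mm9), carries an accession that RefSeq now gives to Gbp7. It read 21.7 in the knockdown, where it was not well above background, and 23.6 in the control, a plain difference of -0.22. That is less than the median single-spot SD of 0.34 among 13 repeatedly spotted probes above background on 1 array. A further probe of that name, on chr3:142213888-142213947 (mm9), read 4.88 in the knockdown and 4.65 in the control and was not above background on either. The gene that RefSeq now calls Gbp6 stands in the files as Mpa2l on chromosome 5 and is no member by the naming rule. Its brighter probe had levels of -4.96 in the knockdown and -4.88 in the control, a difference of -0.08.

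Mx2 had the largest difference of the measured members. Its probe read 6.98 in the knockdown, not well above background, and 416 in the control, which are levels of -7.49 in the knockdown and -1.49 in the control. Set against the lowest level at which a probe was well above background in the knockdown, -5.96, the signal was at least 22.1-fold lower, and the plain difference was -6.00. That level is not a detection limit: the Gbp6 probe, at -5.86 in the knockdown, was not well above background. Here and below, such a bound for a gene dim on 1 array holds only against the lowest such level of that array. With normexp background correction Mx2 was 8.20-fold lower, which is under that bound. The offset of 50 in that correction is larger than the knockdown reading of 6.98, so the size rests on the processing. Of all measured genes, 0.152% had a lower plain difference than Mx2. Mx1, the neighbouring family member on chromosome 16, read 5.99 in the knockdown and 10.6 in the control and was not well above background on either array. The RefSeq table used lists both Mx genes as transcribed pseudogenes in the reference strain.

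**Figure D3:**
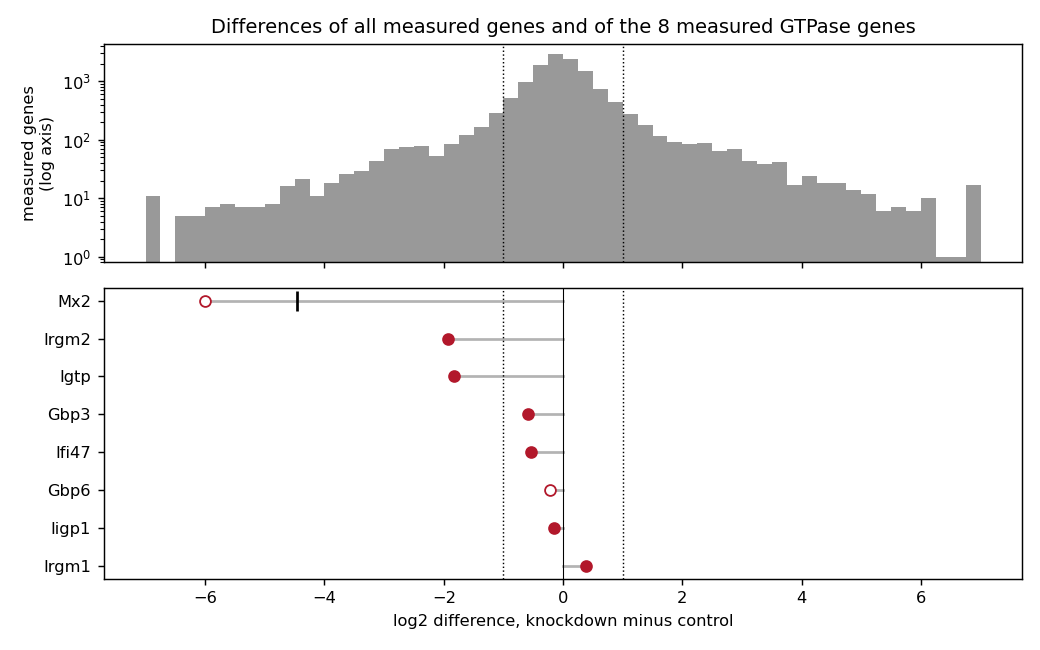
Top, number of measured genes (log axis) by log2 difference, knockdown minus control, in bins of 0.25, with the outermost bars holding all genes beyond them. Bottom, the 8 measured members on the same axis, with open circles for members not well above background in the knockdown, dotted lines at 2-fold and a black tick at the bound of Mx2. Mx2, Irgm2 and Igtp lie left of the 2-fold line, 4 members lie between it and 0, and Irgm1 lies right of 0 at 0.39.

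Members lie in 2 groups on chromosome 11, which allowed neighbours to be read beside them. From 100000 bases before Igtp to 100000 bases after Irgm2 (chr11:57920927-58136152, mm9), 8 of 13 genes on the array were measured and only Igtp and Irgm2 were at least 2-fold lower. The flanking genes that were measured had differences of -0.44 for Cnot8, -0.26 for Gemin5, -0.18 for Mrpl22, -0.73 for Zfp692, 0.21 for Zfp672 and -0.04 for a transcript the files name ENSMUST00000065632. The neighbouring IRG gene Gm12250 (Irgb10) was not well above background on either array.

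Around Irgm1 and Ifi47 (chr11:48579069-49010461, mm9), 10 of 21 genes were measured, with a median difference of -0.12. Only Tgtp2 (Irgb6), a vacuole-binding effector IRG gene, was at least 2-fold lower there. It had a level of -6.02 in the knockdown, not above background, and -3.91 in the control, so that it was at least 4.15-fold lower, but 1.77-fold lower with normexp. Its near-identical copy Tgtp1 was not well above background on either array, and signal of such copies cannot be assigned with certainty.

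The rest of the IRG and GBP family was read from a list of 20 genes, of which 17 had a probe of their own on the array. 8 were measured, with 3 at least 2-fold lower, 0 higher and a median difference of -0.56. Beside Tgtp2 these were Gbp9, at least 2.95-fold lower and above background in the control only, and Gvin1, a very large interferon-inducible GTPase, with differences of -1.07 and -1.56 at its 2 probes. With normexp none of the 3 reached 2-fold at the probe counted: Gbp9 was 1.48-fold lower and Gvin1 1.99-fold at its brighter probe, the one at -1.07. The normexp value of the other Gvin1 probe is not given here. Gm5431 had -0.67, Gbp10 -0.45, 9930111J21Rik1 -0.15, 9930111J21Rik2 0.25 and Irgq 0.30. Gbp2b, Gbp4, Gbp5, Gbp8, Gbp11 and 4 IRG genes were not well above background on either array. This list and those that follow were chosen with earlier results of these data known. Their counts stand beside 8.35% of all measured genes at least 2-fold lower and 8.99% higher.

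The dynamins, mitofusins and atlastins, large GTPases that shape membranes and are not interferon-induced as a class, are set beside the members for comparison. Of 10 measured genes 9 lay within 2-fold and the median difference was 0.16. Dnm2, the ubiquitous dynamin, had 0.50. The probes of the atlastin gene Atl2 disagreed, with 0.29 at the brighter, which was counted, and -1.03 at the other. Dnm3 was above background in the control only, at least 4.29-fold lower and 2.31-fold lower with normexp.

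Of the genes that carry the interferon signal, most lay within 2-fold. Receptors and signal carriers had 1 gene lower and 2 higher of 12 measured, with a median of -0.16. The receptor chains Ifngr1 and Ifngr2 of interferon gamma had differences of -0.76 and 0.34, and the type I receptor chains Ifnar1 and Ifnar2 -0.17 and -0.40. The kinase genes Jak1, Jak2 and Tyk2 had 0.41, -0.56 and -0.15. Irf9, the DNA-binding subunit of the type I complex, was lower, at a level of 0.42 in the knockdown and 1.97 in the control, a difference of -1.55 or 2.92-fold. Stat2, another subunit of that complex, had -0.38. The 2 higher genes were Il10rb at 1.04 and Ifnlr1, chains of the interferon lambda receptor. Ifnlr1 was above background in the knockdown only, with a bound of at least 1.31-fold higher and 1.46-fold with normexp, so that counted by its bound or with normexp 1 gene of the list was higher.

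Among 9 interferon ligand genes on the array 3 were measured, Ifna1, Ifna5 and Ifnl3, all within 2-fold with a median of 0.16. Neither Ifnb1 nor Ifng was well above background on either array. Of 8 interferon regulatory factors 1 was lower, with a median of -0.18. It was Irf7, which amplifies type I interferon responses, at a level of -4.28 in the knockdown and 0.29 in the control, a difference of -4.57 or 23.7-fold, and 11.4-fold with normexp. Irf1, the factor that interferon gamma induces, had -0.26, and the macrophage factor Irf8 -0.27.

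Of 11 measured negative regulators of interferon signalling 2 were lower and 0 higher, with a median of -0.05 that took either sign under other scalings (-0.09 to 0.04). Usp18, a protease that removes Isg15 and blocks the type I receptor, was 5.77-fold lower, and the signalling suppressor Socs3 was 3.76-fold lower. Socs1, the suppressor of interferon gamma signalling, had -0.66.

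The 14 genes of the autophagy and ubiquitin machinery that brings IRG and GBP proteins to vacuoles had mostly positive differences. All 14 were measured, 13 had differences above 0, 1 was at least 2-fold higher and 0 lower. The median was 0.49, beside -0.05 over all measured genes. Atg7, which activates ubiquitin-like proteins for membrane conjugation, had 1.10 and 0.74 at its 2 probes. Gabarap, a conjugated ubiquitin-like protein, had 0.80, the receptor Sqstm1 0.73, and the exception, the ubiquitin ligase gene Trim21, -0.77. The ubiquitin ligase gene Traf6 was counted at 0.30 by its brighter probe and had -0.41 at the other. The count above 0 was 13 in each of the 6 other scalings and corrections run on the lists, where the median ran from 0.44 to 0.58.

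The 6 genes for prenylation, the lipid attachment by which GBP proteins with a CaaX end reach membranes, all lay within 2-fold with a median of 0.07. Of 8 inflammasome genes downstream of GBP proteins 3 were lower and 1 higher, with a median of -0.12. Casp4, the sensor of bacterial lipopolysaccharide (Casp11 in mice), was higher at 1.23 and 1.30 at its 2 probes. Il1b was above background in the control only and at least 2.20-fold lower, Nlrp3 had -1.49 and -0.34 at its 2 probes, and Il18 had -1.04. None of these 3 reached 2-fold with normexp, where the offset of 50 limits the fold that a probe as dim as Il1b can reach.

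Antiviral effectors of type I interferon were mostly lower in the knockdown. Of 22 measured genes 18 were at least 2-fold lower and 0 higher, beside 8.35% lower and 8.99% higher of all measured genes. Above background in the control only were 4 of the 22, beside 4.51% of all measured genes. Counted by their bounds, 18 were still at least 2-fold lower. All 22 differences were below 0, and the median was -2.14, beside a median of -0.05 over all measured genes. The list was chosen with earlier results of these data known, so its count is a description only. With normexp 15 were lower and the median was -1.66. Rtp4, a receptor chaperone that interferon induces, had a difference of -6.47. Cmpk2, a mitochondrial nucleotide kinase, was at least 16.3-fold lower at its brighter probe and had -1.55 at the other, and Oasl2 was at least 17.6-fold lower. With normexp these were smaller than the bounds, at 4.88-fold for the brighter Cmpk2 probe and 4.99-fold for Oasl2. Isg15, the ubiquitin-like modifier, was 7.80-fold lower.

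Of 12 measured interferon gamma response genes 3 were lower and 1 higher, with a median of -0.46. The antigen transporter gene Tap1 had -1.45, the immunoproteasome gene Psmb9 -1.39 and the invariant chain gene Cd74 -1.17. Cd274, the checkpoint ligand PD-L1, was higher at 2.64, or 6.24-fold. The nitric oxide synthase gene Nos2 had 0.58.

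**Figure D4:**
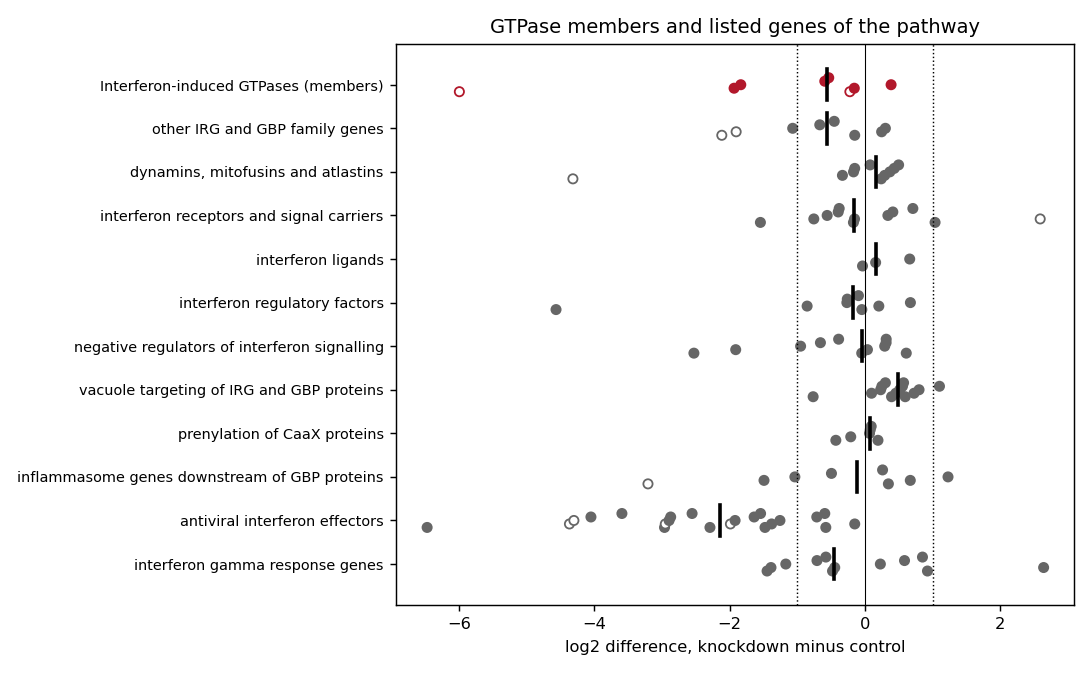
Log2 difference, knockdown minus control, of every measured gene of the members (red, top) and of 11 lists of related genes (grey), 1 point per gene. Open circles are genes above background on 1 array only, black bars are medians and dotted lines mark 2-fold. The antiviral effectors lie wholly below 0 with a median of -2.14, the vacuole targeting genes lie above 0 but for 1, and the members span -6.00 to 0.39.

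The promoter motifs were set beside the differences over all genes with a window. Of 394 measured genes with a response element match 15.2% were at least 2-fold lower and 8.63% at least 2-fold higher, with a median difference of -0.11. Of 10620 measured genes with any window 8.29% were lower and 8.95% higher, with a median of -0.04. Genes with a gamma-activated site match had 9.67% lower and 8.35% higher (910 measured). Among the measured members a response element match was held by Igtp at -1.84, Irgm2 at -1.94, Gbp3 at -0.59, Gbp6 at -0.22 and Irgm1 at 0.39. Only Ifi47, at -0.54, had a window without it, and no window was used for Mx2 or Iigp1. The members are therefore too few to relate the match to the differences. Of 9 other family genes with a window outside chromosome 18, 6 held a response element match, Tgtp2 and 9930111J21Rik1 among them. Family genes on chromosome 18 were left out here, while the shares over all genes keep them.

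**Figure D5:**
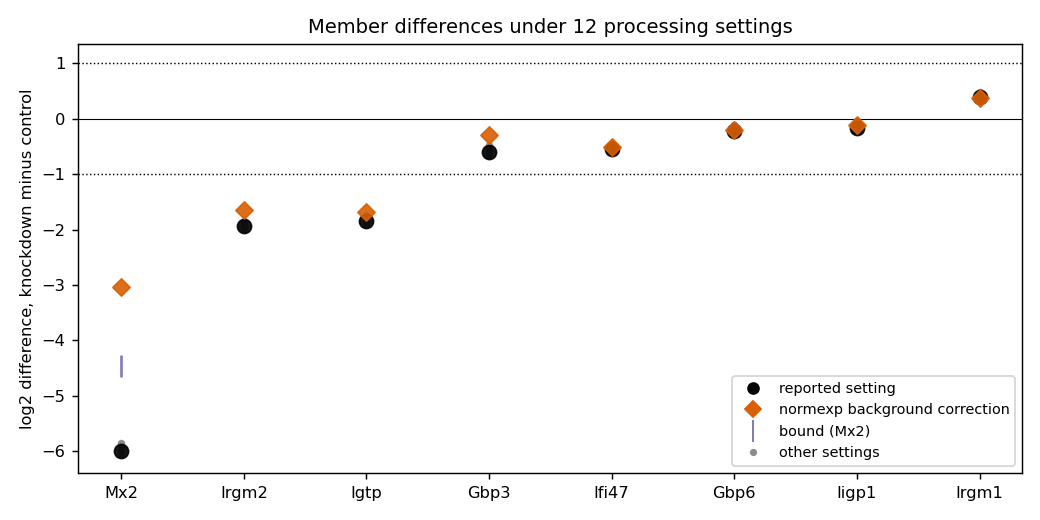
Log2 difference, knockdown minus control, of the 8 measured members under the reported setting (black) and up to 11 other processing settings (grey, with normexp in orange and the bound of Mx2 as a purple bar). Dotted lines mark 2-fold. Mx2 runs from -6.04 to -3.04, Irgm2 and Igtp stay below the 2-fold line, and no member crosses 0.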

How the data were processed

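Per the submitters' processing notes, Agilent Feature Extraction 10.7.3.1 was the software behind the deposited scanner files. They hold, per the file headers, an intensity for each spot on a linear scale, with 1 channel (Cy3), probe positions in mm9, and both arrays on 1 slide and in 1 scan. The members and gene lists were chosen with earlier results of these data known.

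Control spots were left out, as were 177 outlier spots in the knockdown and 162 in the control. The log2 processed intensity minus that of the 75th percentile of each array was averaged over the spots of a probe, and a gene took the value of its probe with the highest mean level. Of 39420 probes, 26159 were named by RefSeq accession, 3123 by symbol and 910 by an older symbol, and 9228 were not named. A bound replaced a level that was not well above background by the higher of itself and the lowest level of a probe well above background. That lowest level is not a detection limit, so a bound holds against it only. No test was run, because each group has 1 array; the arrays' number limits the precision. Named genes were the members, up to 3 of each list with the largest differences, and genes introduced by their role.

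The alternatives were normexp (offset 50; limma 3.58.1 in R 4.3.3), other scalings, probe rules and filters, and the deposited value table, whose linear, uncentred intensity values (medians 27.8 in the knockdown and 28.0 in the control) were 0.995 to 1.005 times the scanner values. Calculations were tested on simulated data. Other steps used numpy 2.4.6 and pandas 2.3.3. The value of 1 listed gene is not reported here.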

Additional observations from a re-analysis of the deposited data

How the results depend on the processing

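Under 11 other settings the count of members at least 2-fold lower was 3, except that it was 2 when only genes above background on both arrays were kept, which leaves out Mx2 by construction, and the count of higher members was 0 in each. The median member difference was -0.40 with normexp and between -0.61 and -0.47 otherwise. No measured member changed sign. Igtp ran from -1.88 to -1.67, Irgm2 from -1.98 to -1.64, Irgm1 from 0.34 to 0.48, Ifi47 from -0.58 to -0.44, Gbp3 from -0.64 to -0.29, Gbp6 from -0.27 to -0.11, Iigp1 from -0.20 to -0.03 and Mx2 from -6.04 to -3.04. Of all genes, 613 were at least 2-fold lower and 788 higher with normexp, 693 and 792 with only genes above background on both arrays, and 1759 and 1657 with no filter on dim probes, against 1150 and 1238 as reported. The last 2 differ by construction in the genes counted. Normexp adds an offset of 50 to every spot, which by construction draws the differences of dim probes toward 0. The share of that offset in the normexp counts was not tested apart from the background model. The median of all genes lay between -0.09 and 0.04. No paired analysis was possible because each group has 1 array. Signal over background limits the GBP genes, Mx1 and Mx2 most.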
